A study of Mus musculus with 19 samples.

Results

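Mitosis and G2/M genes are 36 genes of cell division, listed by symbol with no measured value in the rule. They run from the cyclins and kinases that start mitosis to motors and a ubiquitin-conjugating enzyme that act at its end. A gene was measured where the array annotation gave it a probe set with that symbol alone, and the brightest such probe set was used. Each of 35 members had 1 probe set, among 19752 genes in all. The expression of Ccnb1, the cyclin B1 gene, was not analysed here.

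In dividing cells these genes are transcribed late in the cycle. During quiescence the DREAM complex, built on the MuvB core, holds them down through a promoter element called the cell cycle genes homology region (CHR). In S and G2 the MuvB core joins B-MYB and FOXM1 and the same promoters are activated, while NF-Y binds their CCAAT boxes. Interleukin-2 (IL-2) is a growth factor of lymphocytes. Its receptor signals through the kinases JAK1 and JAK3 to STAT5, and natural killer (NK) cells stimulated with it grow before they divide.

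The cells were NK cells enriched by negative selection from spleens of male C57BL/6 mice aged 6 weeks, so other blood cells could remain. Markers of NK cells were detected (mean log2 intensity of the list 7.55 in both untreated low-intensity samples), and the B cell list lay between 8.31 and 8.83 over the low-intensity set. Of 19 samples, 3 were untreated and 4 received IL-2 at 250 U/ml. The series' description gives 8 h of culture, which the titles repeat for untreated and IL-2 replicates 3 and 4 alone. All others received IL-2 with a code-named inhibitor. The compound 6226, labelled as a JAK3 inhibitor, was given at 0.25, 1 and 4 µM (2 samples each). The compound 3404, labelled as a JAK1 inhibitor, was given at 0.0625 µM (1 sample), 0.25 and 1 µM (2 each) and 4 µM (1). Nothing in the labels ties the samples of a group to different animals or cultures, so the p-values describe the variation among these arrays alone, and it may be technical.

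Levels are log2 intensities as deposited, and they lie on 2 scales. The high-intensity set has 7 samples with array medians from 7.49 to 7.59, and the low-intensity set has 12 samples with medians from 5.70 to 5.90. Both sets hold untreated and IL-2 samples and both inhibitors at 0.25 and 1 µM, and the 0.0625 and 4 µM samples all lie in the low-intensity set. Levels are therefore compared only within a set, or in a model that includes the set. In the high-intensity set 14 of 35 members (40.0%) held 1 exact value shared by at least 3 samples, against 20.8% of all genes. The median range of a member over the 7 samples was 0.28 there, below the 0.37 of all genes, so that set carried little variation of these genes. In the low-intensity set the median range was 1.45 for members and 0.75 for all genes.

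The promoters of 4 members are shown because these genes differed most between replicates or, for Cdk1, drive entry into mitosis. CCAAT boxes are visible in all 4 stretches, and TTTGAA in those of Ccnb2 and Cdk1. The sequences are RefSeq's (GRCm38.p6), the 250 bases before the gene's start, read 5′ to 3′ on the gene's strand. Capitals mark the CHR letters TTTGAA and the CCAAT box, each on either strand (TTCAAA and ATTGG on the other). Plk1 lies at chr7:122159185-122159434 on the plus strand, Bub1 at chr2:127831860-127832109, Ccnb2 at chr9:70421555-70421804 and Cdk1 at chr10:69352913-69353162, all on the minus strand.
Plk1: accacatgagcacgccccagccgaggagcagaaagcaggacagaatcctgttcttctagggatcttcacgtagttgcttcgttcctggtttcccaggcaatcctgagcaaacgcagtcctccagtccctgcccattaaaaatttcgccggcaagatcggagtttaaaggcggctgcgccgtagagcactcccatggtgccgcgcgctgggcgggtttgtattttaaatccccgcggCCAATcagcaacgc
Bub1: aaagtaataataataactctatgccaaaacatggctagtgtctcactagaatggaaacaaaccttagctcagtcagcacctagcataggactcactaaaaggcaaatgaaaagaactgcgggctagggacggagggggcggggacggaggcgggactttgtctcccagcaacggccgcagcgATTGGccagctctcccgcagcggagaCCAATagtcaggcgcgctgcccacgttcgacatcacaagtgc
Ccnb2: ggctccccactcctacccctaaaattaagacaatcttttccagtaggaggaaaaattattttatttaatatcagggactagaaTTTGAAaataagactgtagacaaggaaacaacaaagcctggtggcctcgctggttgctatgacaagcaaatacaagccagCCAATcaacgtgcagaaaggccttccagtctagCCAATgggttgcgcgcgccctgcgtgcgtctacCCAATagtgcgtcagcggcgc
Cdk1: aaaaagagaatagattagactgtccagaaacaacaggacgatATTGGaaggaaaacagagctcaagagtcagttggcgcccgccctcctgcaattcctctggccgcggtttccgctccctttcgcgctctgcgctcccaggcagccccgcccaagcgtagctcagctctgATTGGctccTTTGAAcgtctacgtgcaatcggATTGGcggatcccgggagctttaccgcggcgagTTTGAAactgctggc
The window searched ran from 250 bases before to 50 bases after the start. It was searched in the 30 of 36 listed genes with an entry, which include Ccnb1, whose expression was not analysed. TTTGAA was found in 22 of the 30 (73.3%) and in 20.2% of 27025 genes. CCAAT was found in 24 (80.0%) and in 41.1% of genes, and both motifs in 19 (63.3%) and in 8.97% of genes. Cdk1 and Ccnb2 have 3 CCAAT boxes and 2 CHR matches each, and Bub1 has 2 CCAAT boxes and no TTTGAA. The CHR match of Plk1 and 1 of the 2 of Ccnb2 lie after the start, outside the bases shown. Cdc25b has 1 CCAAT box and no TTTGAA. Cenpa has 2 and 1. These are matches of letters, and binding was not measured.

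No member was called higher with IL-2, and the members' mean differed from untreated cells by less than the spread between replicates. The mean log2 intensity of the 35 genes, adjusted to the low-intensity scale, was 6.30 ± 0.16 (SD, n = 3) in untreated cells and 6.22 ± 0.14 (n = 4) with IL-2. With the JAK3 inhibitor it was 6.47 ± 0.10 at 0.25 µM, 6.50 ± 0.18 at 1 µM and 6.09 ± 0.87 at 4 µM (n = 2 each). With the JAK1 inhibitor it was 6.38 ± 0.07 at 0.25 µM and 6.56 ± 0.24 at 1 µM (n = 2 each), and the single samples at 0.0625 and 4 µM gave 6.20 and 6.48. The SD at 4 µM JAK3 inhibitor was the largest of the 7 groups with more than 1 sample. Both its samples lie in the low-intensity set, while the other 6 groups span both sets. The SDs of those groups depend on the fitted set term and on high-intensity samples that varied little, so the SDs are not measured alike. The replicates at 4 µM JAK3 inhibitor had member means of 5.48 and 6.71, which lie below and above the range of the IL-2 samples (6.10 to 6.38). In these bulk samples fewer dividing cells and less RNA per cell cannot be told apart.

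**Figure D1:**
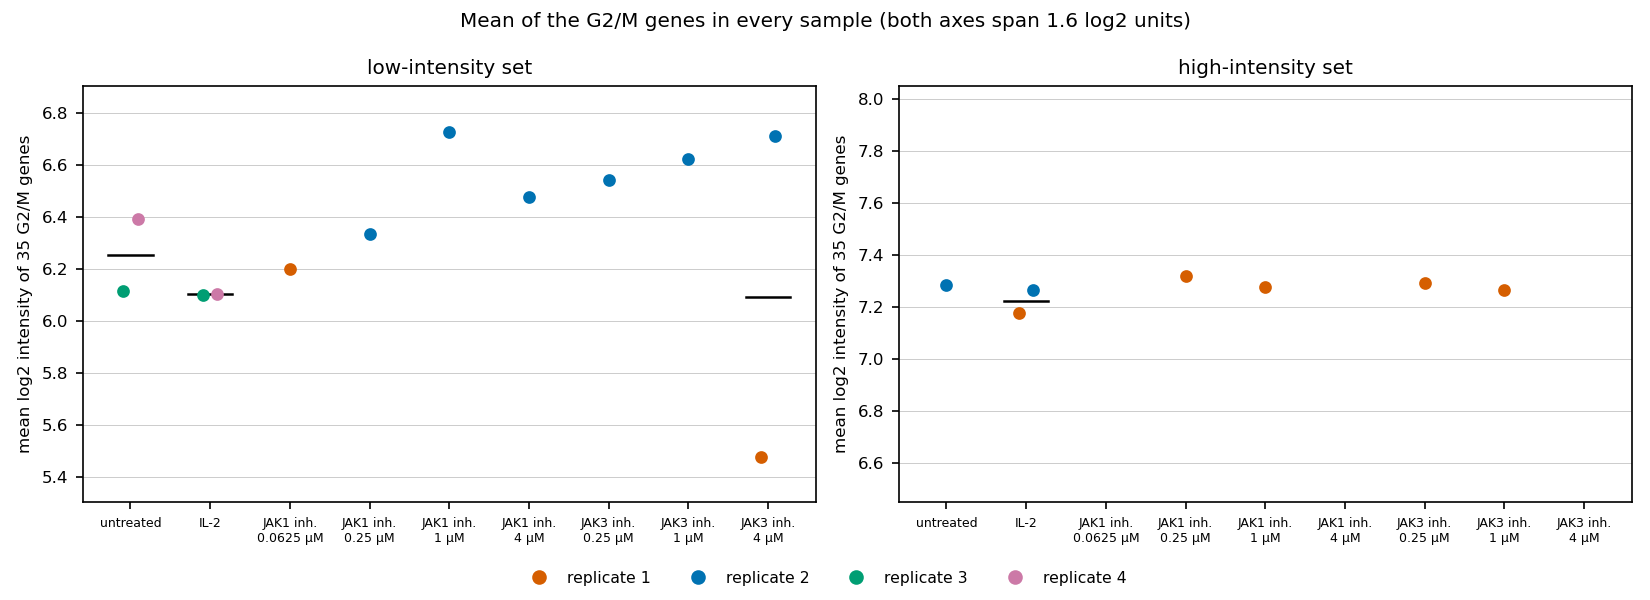
Mean log2 intensity of the 35 G2/M genes in every sample, by group, with the low-intensity set on the left and the high-intensity set on the right. Points are samples coloured by replicate number and bars are means of groups with more than 1 sample in the set. In the low-intensity set replicate 1 of 4 µM JAK3 inhibitor lies at 5.48 and its replicate 2 at 6.71, while the high-intensity points lie close together.

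The replicate spread was large for these genes. The residual SD of the fit over all 19 samples had a median of 0.35 over members and 0.18 over all genes, 33 of 35 members lay above the gene median, and 24 lay among the top 5% of genes. Without replicate 1 of 4 µM JAK3 inhibitor the medians were 0.20 and 0.17, 26 members lay above the gene median and 4 among the top 5%. Plk1 and Bub1 had the largest spread (residual SD 0.65 and 0.62), and Birc5 and Spc25 the smallest (both 0.15). Within groups the median SD of a member was 0.20 in untreated cells (genes 0.20), 0.16 with IL-2 (0.13), 0.11 and 0.18 with 0.25 and 1 µM JAK3 inhibitor (0.08 and 0.12), 0.12 and 0.26 with 0.25 and 1 µM JAK1 inhibitor (0.09 and 0.11), and 0.91 with 4 µM JAK3 inhibitor (0.19).

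All 35 members were higher in replicate 2 than in replicate 1 of 4 µM JAK3 inhibitor, and so were 14013 of all 19752 genes. The members' median difference was 1.28 on the log2 scale (range 0.27 to 2.33), against 0.19 over all genes. The difference was at least 2-fold for 23 members (65.7%) and for 1.32% of all genes. Plk1 (2.33), Bub1 (2.30), Ccnb2 (2.14) and Mki67 (2.09) ranked 2, 3, 4 and 6 among all genes by this difference. Of the 100 genes with the largest difference, 21 were members, 10 were other mitotic genes and 6 were granulocyte precursor markers. The gene at the top was Mpo, the myeloperoxidase of granulocyte precursors, with a difference of 3.11. Replicate 1 was also the lowest of all 12 low-intensity samples for 31 of 35 members (88.6%), against 16.8% of genes. The exceptions were Cdc25b, Cdc25c, Cenpa and Ndc80. Between the untreated low-intensity replicates, 27 members and 13500 of all 19752 genes were higher in replicate 4 than in replicate 3. The medians were 0.29 and 0.14, and 2 members and 0.263% of genes were at least 2-fold higher. Between the IL-2 replicates 3 and 4, and between 1 and 2, no member was at least 2-fold higher (0.005% and 0.02% of genes).

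Markers of other cells moved with the same replicate. It was the lowest of the 12 samples for 9 of 10 T cell markers, 8 of 10 granulocyte precursor markers, 9 of 17 erythroid markers and 54 of 91 other mitotic genes. It was the lowest for 1 of 14 NK cell markers (7.14%) and 1 of 12 B cell markers (8.33%), against 16.8% of all genes. Among S-phase genes it was the lowest for 11 of 37 (29.7%). Of these, 36 of 37 were higher in replicate 2, with a median difference of 0.53 (all genes 0.19). The mean log2 intensity of the granulocyte precursor list was 5.99 in replicate 1 and 7.36 in replicate 2, and that of the T cell list 6.28 and 7.27. For the NK cell list the replicates were close, at 7.96 and 7.94. The title of replicate 1 follows the form of the high-intensity samples, while its intensities lie in the low-intensity set. The part of the other cells and of the sample's processing in the replicate difference was not tested.

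**Figure D2:**
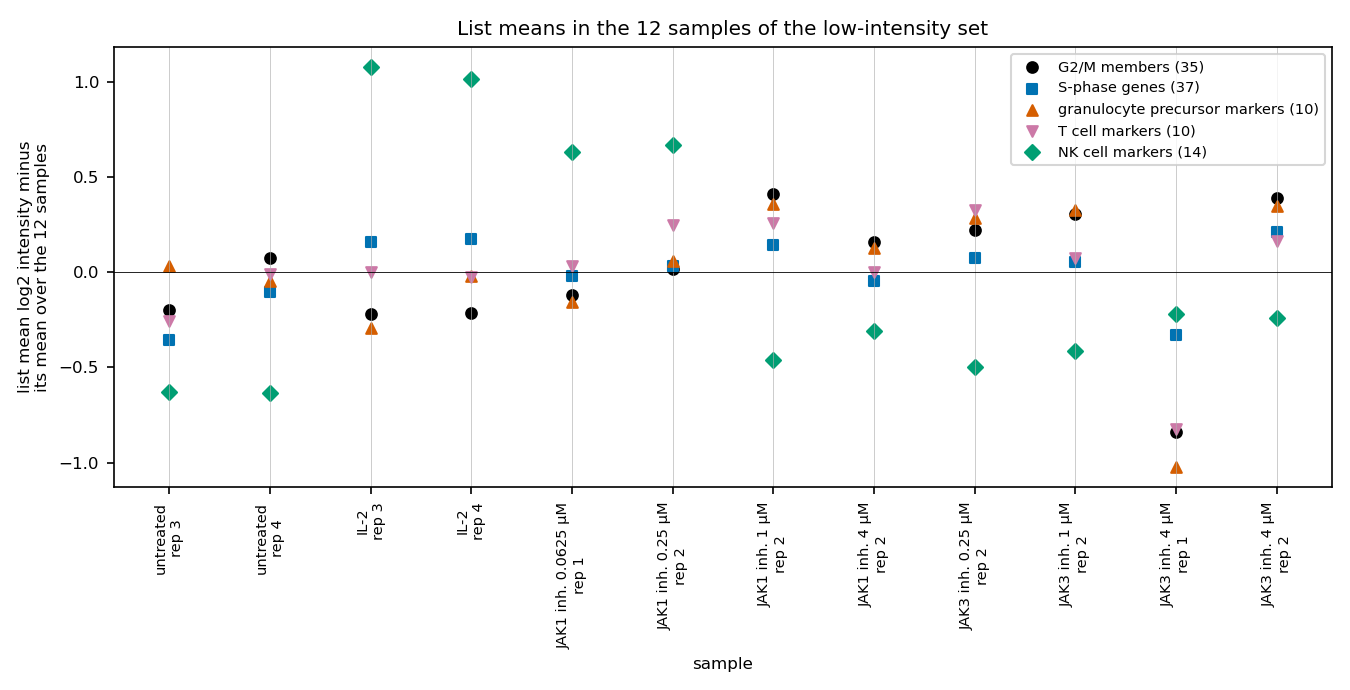
List means in the 12 low-intensity samples, each minus its own mean over those samples, on a log2 scale. Points show G2/M members, S-phase genes and markers of granulocyte precursors, T cells and NK cells. Members, granulocyte precursor and T cell markers are lowest in replicate 1 of 4 µM JAK3 inhibitor, where the NK cell list (7.96) differs little from replicate 2 (7.94).

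In the comparison of IL-2 with untreated cells, 1 of 35 members was called (adjusted p under 0.05 in limma, adjusted over 19752 genes), where 9.15% of all genes were. It was Cdc25b, which fell. The median change of members was -0.07 (all genes -0.01), and with 1 sample left out it ran from -0.15 to 0.004. A positive value was found for 13 members. For this and the other fits, the share of all genes with a positive value is not given here. Counts of positive members in those fits are therefore not results about the members. Of 37 S-phase genes, which act before G2, 7 rose, and the median of the list was 0.32. Those that rose were Mcm2, Mcm5 and Mcm6 of the replicative helicase, Pcna, Rfc4, Chek1 and Dtl. Of 91 other mitotic genes 0 were called (limma; 8 at an unadjusted p under 0.05), with a median of 0.01. Of 24 genes of the anaphase-promoting complex and cohesin core 0 were called (2 at an unadjusted p under 0.05). Among 19 genes of DREAM, MuvB and their partners, Rbl1 rose by 0.84 ± 0.17 (SE), while the retinoblastoma gene Rb1 fell by 0.77 ± 0.12 and the E2F partner Tfdp2 fell by 0.89 ± 0.14. The difference between the S-phase and G2/M lists was not tested.

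Against IL-2, each dose of the JAK3 inhibitor gave 1 called member, Cdc25b, higher with inhibitor. All genes were called at 5% at 0.25 µM, 6.55% at 1 µM and 7.51% at 4 µM. The median change of members was 0.23 at 0.25 µM and 0.27 at 1 µM, with 33 of 35 positive at both doses (all genes 0.06 and 0.02). With 1 sample left out the median at 0.25 µM ran from 0.12 (without replicate 2 at that dose, the low-intensity sample) to 0.33 (without IL-2 replicate 2). At 1 µM it ran from 0.14 (without replicate 2 at that dose) to 0.46 (without replicate 1). At 4 µM it was -0.15 with 8 positive, but 0.31 with 34 positive when each array was centred on its median without the set term. The centred fit mixes set and dose there, because the 4 µM samples lie in the low-intensity set alone and IL-2 samples in both sets. At 4 µM the values depended on which replicate was kept. Without replicate 1 all 35 members had a positive value, with a median of 0.46, and 6 were called higher (Ccnb2, Cdc25b, Kif4, Cdc20, Ect2 and Mki67), where 7.28% of genes were called. Without replicate 2 the median was -0.81 and 22 members were called, where 8.65% of genes were. Of those, Cdc25b was higher (1.04), and the other 21 were lower, among them Bub1 at -1.95 and Kif11 at -1.33. Both of these fits take the spread of the remaining sample from the rest of the groups.

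For the JAK1 inhibitor, 0 members were called at 0.0625 µM (limma; 0 also at an unadjusted p under 0.05), where 0.0203% of genes were. At 0.25 µM 1 was called (all genes 2.253%), at 1 µM 2 (5.16%) and at 4 µM 1 (3.77%), all higher than with IL-2. Cdc25b was called at these 3 doses and Cenpa at 1 µM. The median change of members was -0.04, 0.15, 0.32 and 0.26 from the lowest to the highest dose, and 17, 28, 35 and 29 members had positive values. These counts, too, stand without the share of all genes and are not results about the members. With 1 sample left out the median at 1 µM ran from 0.11 (without replicate 2 at that dose, the low-intensity sample) to 0.52 (without replicate 1). At 0.25 µM it ran from 0.08 (without replicate 1 at that dose) to 0.23 (without IL-2 replicate 2), at 4 µM from 0.20 to 0.30 and at 0.0625 µM from -0.10 to 0.03. With arrays centred on their medians and no set term the value at 0.0625 µM was 0.34 and that at 4 µM was 0.64. Samples at those doses lie in the low-intensity set alone and IL-2 samples in both sets, so that fit mixes set and dose. All-gene medians were 0.08, 0.05, 0.08 and -0.10. The JAK1 and JAK3 comparisons share the same 4 IL-2 samples, so their values are not independent.

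**Figure D3:**
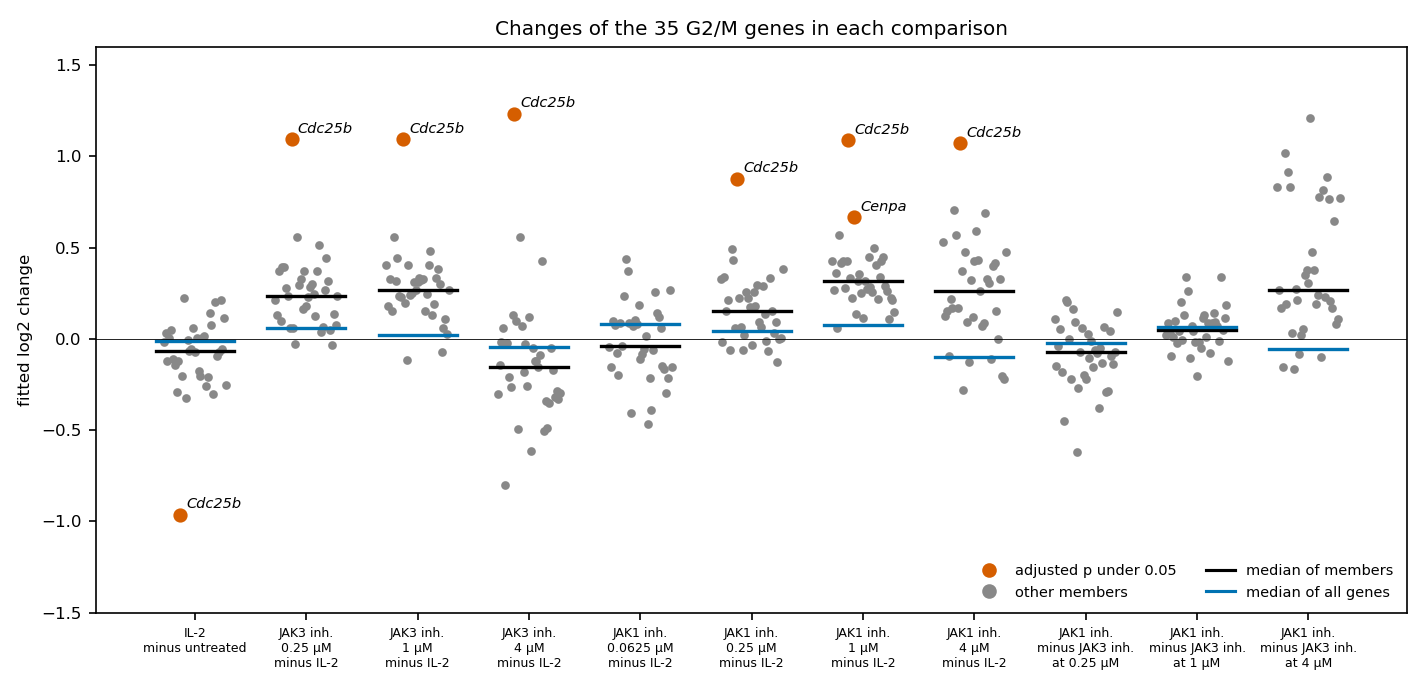
Fitted log2 change of each of the 35 members in the 11 comparisons, with called members in orange, the median of members as a black line and the median of all genes as a blue line. Each point is 1 gene. Cdc25b lies at -0.96 for IL-2 against untreated and between 0.88 and 1.24 where it was called against IL-2.

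Within a set, each dose has 1 inhibitor sample against 2 IL-2 samples (2 against 2 at 4 µM JAK3 inhibitor), so the values by set are given with no test. In the low-intensity samples the median of members was 0.50 and 0.55 with 0.25 and 1 µM JAK3 inhibitor and 0.19, 0.61 and 0.36 with 0.25, 1 and 4 µM JAK1 inhibitor, against IL-2. All-gene medians in the same samples were 0.12, -0.01, 0.05, 0.17 and -0.08. Positive values were found there for 35, 34, 29, 35 and 30 members and for 67.4%, 48.7%, 57.5%, 73.4% and 39.3% of all genes. With 4 µM JAK3 inhibitor the low-intensity median was -0.04 with 16 of 35 positive (genes -0.02, 46.7% positive). With 0.0625 µM JAK1 inhibitor it was 0.11 with 24 positive (genes 0.11, 62.0% positive). In the high-intensity samples the members' medians were 0.01 for both JAK3 inhibitor doses and 0.08 and 0.00 for 0.25 and 1 µM JAK1 inhibitor, where their values hardly varied. In that order 20, 19, 22 and 18 members were positive, and 44.2%, 60.7%, 56.5% and 41.7% of all genes. Over the low-intensity set, all 7 samples with at least 0.25 µM inhibitor lay above both IL-2 samples for 1 of 35 members, Cdc25b, and for 8.86% of genes. Without replicate 1 of 4 µM JAK3 inhibitor the 6 others did so for 19 members and for 12.7% of genes, and all lay below IL-2 for 0 members. That sample was left out after it was seen to be the lowest for 31 of 35 members. The higher count follows in part from that choice, and no conclusion is drawn from it. The 19 included Ccna2, Ccnb2, Cdc25b, Cdc25c, Foxm1 and Plk1 of mitotic entry, 7 spindle or kinetochore genes and Mki67.

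Markers of some other cells were higher in the same samples. The granulocyte precursor list was 6.72 and 6.996 with IL-2 and 7.08 to 7.38 with at least 0.25 µM inhibitor, apart from the 5.99 of replicate 1 of 4 µM JAK3 inhibitor. The monocyte and macrophage list was 6.44 and 6.53 with IL-2 and 6.84 to 7.35 with inhibitor, and 7.14 and 7.25 in untreated cells. Limma called 6 of its 12 genes lower with IL-2 and 6 higher with 1 µM of either inhibitor. Of 12 B cell markers 5 fell with IL-2, and of 12 neutrophil markers 8 fell. Of 17 erythroid markers 0 rose and 2 fell at each JAK3 inhibitor dose and at 1 and 4 µM JAK1 inhibitor, with list medians of -0.002, 0.007, -0.141, -0.112 and -0.175. Of 10 T cell markers 0 were called against IL-2 at any dose (limma; 0 to 2 at an unadjusted p under 0.05), and with 4 µM JAK3 inhibitor 0 of 10 had a positive value (median -0.30). NK cell markers ran the other way: 12 of 14 rose with IL-2, and 13 fell with 1 µM JAK3 inhibitor. Over all genes 9.15% were called with IL-2, 6.55% with 1 µM JAK3 inhibitor and 5.16% with 1 µM JAK1 inhibitor. For marker lists too, a change in the share of cells and in RNA per cell cannot be told apart. The part of these cells in the levels of the G2/M genes was not tested.

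At matched doses 0 of 35 members were called between the inhibitors in limma. The 3 comparisons gave 1, 0 and 4 members at an unadjusted p under 0.05, and 0.451%, 0% and 0% of all genes were called. At 0.25 µM the median of JAK1 minus JAK3 inhibitor was -0.07 (12 positive), and the largest difference was Cenpa, at -0.62 ± 0.21 (95% interval -1.05 to -0.18, adjusted p = 0.37). At 1 µM it was 0.05 (24 positive), from -0.20 for Hmmr to 0.34 for Spc25. With 1 sample left out the median ran from -0.14 to 0.02 at 0.25 µM (without JAK3 inhibitor replicate 1 or 2) and from -0.15 to 0.285 at 1 µM (without JAK1 inhibitor replicate 2 or 1). At 4 µM it was 0.27 (31 positive), and it was -0.27 without JAK3 inhibitor replicate 1 and 0.96 without replicate 2, with 9 members then called, where 0.137% of genes were. For Kif11, the largest difference at 4 µM (1.21), the 95% interval ran from 0.40 to 2.02, and for Spc25 at 1 µM from -0.004 to 0.68. A missed threshold does not show that the compounds act alike.

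Over the 9 groups together, the F-test of limma called 2 members, Cdc25b (adjusted p = 0.000463) and Cenpa (adjusted p = 0.036), where 6.42% of genes were called. Without replicate 2 of 4 µM JAK3 inhibitor it called 18 members (8.97% of genes) and without replicate 1 it called 3 (8.22%). It called Cdc25b alone without any 1 of 11 other samples. Beside those shares of all genes, 1 called member of 35 is not a result about the group.

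In the values below, the untreated and IL-2 pairs and the single samples are those of the low-intensity set. Cdc25b encodes a phosphatase that activates cyclin-dependent kinases at the start of mitosis. Cdc25b was 7.47 and 7.98 in the untreated pair, 6.86 and 6.83 in the IL-2 pair, and 7.88 and 8.27 in replicates 1 and 2 of 4 µM JAK3 inhibitor. For Cdc25b the single samples were 7.28, 7.86, 7.92 and 7.91 at rising JAK1 inhibitor doses and 7.84 and 8.04 at 0.25 and 1 µM JAK3 inhibitor. High-intensity Cdc25b values were 9.66 untreated, 8.36 and 8.70 with IL-2, 9.28 and 9.63 with the JAK1 inhibitor, and 9.73 and 9.53 with the JAK3 inhibitor. In both sets the IL-2 samples were the lowest and did not overlap untreated cells or any dose of inhibitor. On the adjusted scale the level was 7.80 ± 0.29 (SD, n = 3) untreated, 6.84 ± 0.14 (n = 4) with IL-2, 7.93 ± 0.14, 7.93 ± 0.15 and 8.07 ± 0.27 with JAK3 inhibitor from 0.25 to 4 µM, and 7.72 ± 0.20 and 7.93 ± 0.01 with 0.25 and 1 µM JAK1 inhibitor (n = 2 each). The single samples at 0.0625 and 4 µM JAK1 inhibitor were at 7.28 and 7.91. Limma gave a change of -0.96 ± 0.16 (SE) with IL-2 (adjusted p = 0.000264). Against IL-2 it gave 1.10 ± 0.18, 1.10 ± 0.18 and 1.24 ± 0.18 for the JAK3 inhibitor doses (adjusted p = 0.00046, 0.000339 and 0.000132).

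For the JAK1 inhibitor the change of Cdc25b was 0.44 ± 0.23 at 0.0625 µM (limma adjusted p = 0.453), 0.88 ± 0.18 at 0.25 µM (0.00906), 1.09 ± 0.18 at 1 µM (0.00044) and 1.07 ± 0.23 at 4 µM (0.00929). The JAK1 minus JAK3 inhibitor difference was -0.22, -0.01 and -0.16 from 0.25 to 4 µM, with 95% intervals from -0.64 to 0.21, -0.43 to 0.42 and -0.68 to 0.36 (limma adjusted p = 1 each). The call at 0.25 µM JAK1 inhibitor was lost without either of its samples (adjusted p = 0.0582 and 0.355). Within a set the direction was the same, and with 3 residual degrees of freedom in the low-intensity set and 1 in the high-intensity set few calls passed. IL-2 against untreated gave -0.88 in the low-intensity set (adjusted p = 0.0786) and -1.13 in the high-intensity set (0.757). With a term for the form of the sample titles in place of the set, no comparison called Cdc25b (adjusted p from 0.403 to 1). The title form differs from the set only for replicate 1 of 4 µM JAK3 inhibitor, an array on the low scale. The title-form fit thus puts the gap between the scales into the spread, so it cannot judge this call.

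Cenpa encodes the histone H3 variant of centromeres, on which the kinetochore is built. Cenpa was 7.27 and 7.56 in the untreated pair, 7.12 and 7.31 in the IL-2 pair, and 7.61 and 7.97 in replicates 1 and 2 of 4 µM JAK3 inhibitor. For Cenpa the single samples were 6.82, 7.13, 7.92 and 7.71 at rising JAK1 inhibitor doses and 7.91 and 7.85 at 0.25 and 1 µM JAK3 inhibitor. High-intensity Cenpa values were 9.49 untreated, 8.74 and 9.08 with IL-2, 8.86 and 9.54 with the JAK1 inhibitor, and 9.32 and 9.08 with the JAK3 inhibitor. At 1 µM JAK1 inhibitor both samples lay above every IL-2 sample of their set, while the samples at 0.0625 and 0.25 µM overlapped IL-2 or lay below it. The adjusted level was 7.23 ± 0.16 (SD, n = 4) with IL-2, 7.90 ± 0.03 (n = 2) with 1 µM JAK1 inhibitor, 7.17 ± 0.05 (n = 2) with 0.25 µM and 7.55 ± 0.28 (n = 3) untreated. Limma gave 0.67 ± 0.18 at 1 µM (adjusted p = 0.0331), and the call was lost without IL-2 replicate 1, 3 or 4 or either sample at 1 µM (adjusted p = 0.0788, 0.107, 0.0612, 0.153 and 0.439). The JAK3 inhibitor gave 0.56 ± 0.18, 0.40 ± 0.18 and 0.56 ± 0.19, which missed the threshold (adjusted p = 0.0937, 0.287 and 0.0833).

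**Figure D4:**
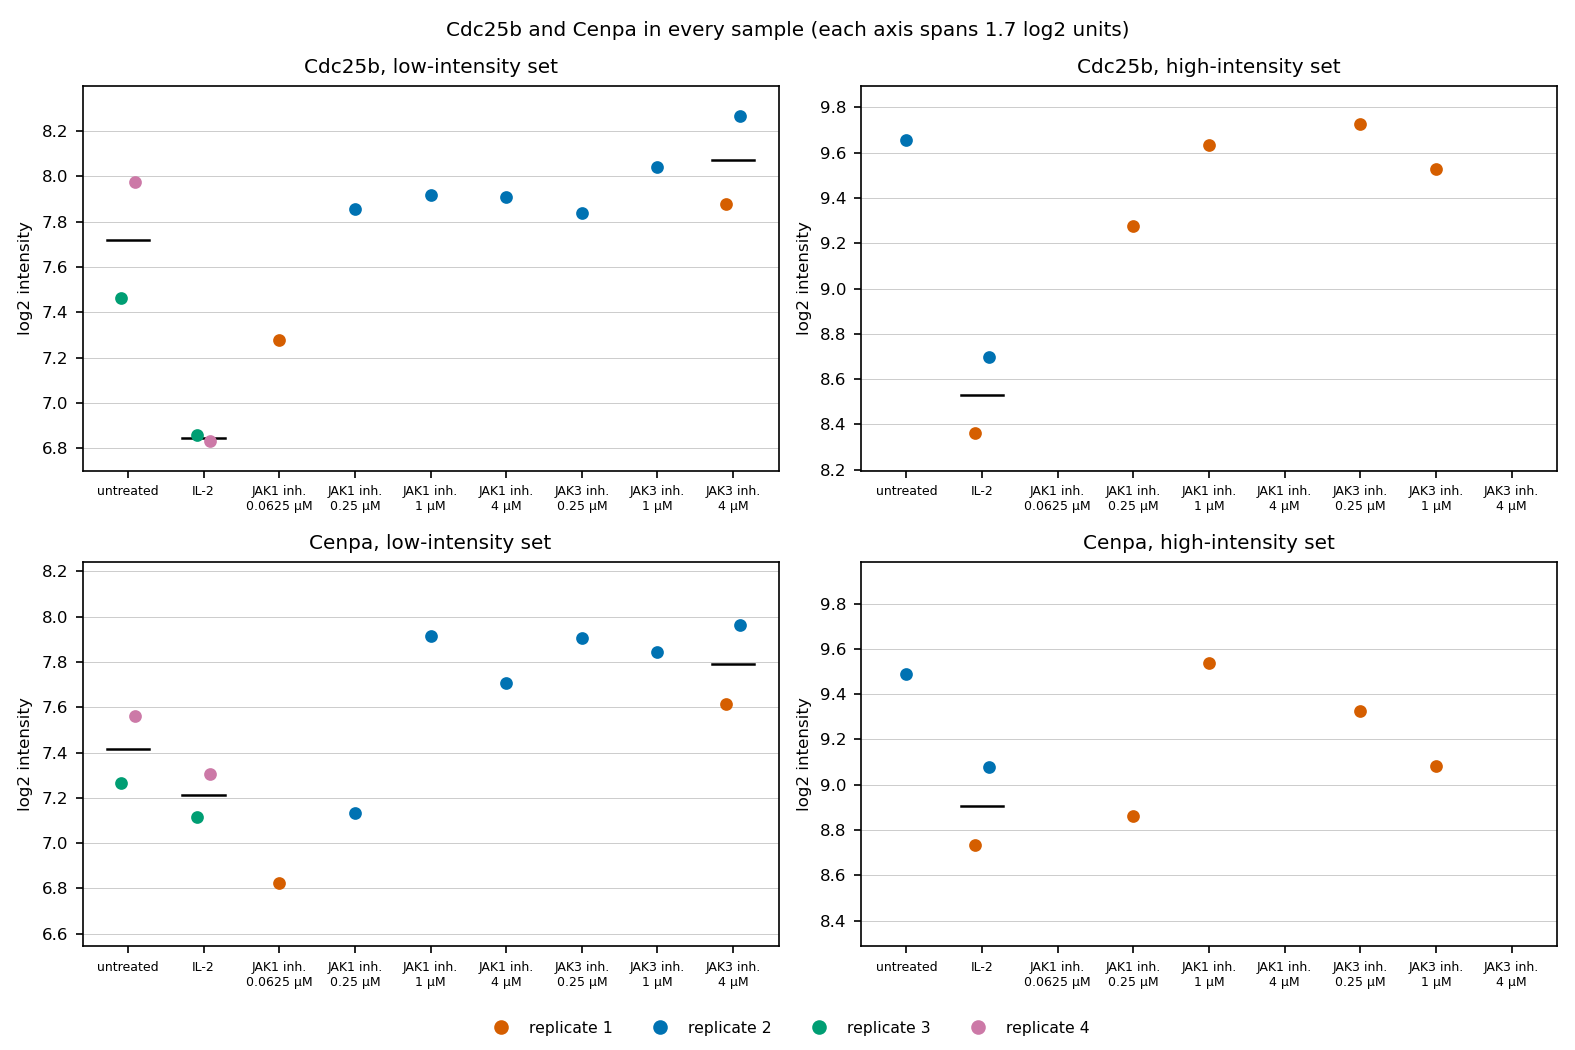
Log2 intensity of Cdc25b (top) and Cenpa (bottom) in every sample by group, in the low-intensity set (left) and the high-intensity set (right). Points are samples coloured by replicate number and bars are means of groups with more than 1 sample in the set. The IL-2 points of Cdc25b lie lowest in both sets, at 6.83 and 6.86 and at 8.36 and 8.70, while those of Cenpa overlap other groups.

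Members with the 2 largest or 2 smallest replicate spreads, or the 3 highest or 3 lowest fitted changes in a comparison, are given next by role. None of those below was called in the fit over all samples. The untreated pair is replicates 3 and 4, the IL-2 pair replicates 3 and 4, and single samples are from the low-intensity set, with JAK1 inhibitor doses of 0.0625, 0.25, 1 and 4 µM. High-intensity inhibitor values are at 0.25 and then 1 µM. Levels of different genes come from different probe sets and are not compared. Among genes of mitotic entry, Cdk1 encodes the kinase that drives mitosis. Cdk1 was 6.34 and 7.38 in the untreated pair, 7.15 and 7.01 in the IL-2 pair, and 5.83 and 7.59 in replicates 1 and 2 of 4 µM JAK3 inhibitor. For Cdk1 the single samples were 7.29, 7.27, 7.64 and 6.92 at rising JAK1 inhibitor doses and 7.13 and 7.41 at 0.25 and 1 µM JAK3 inhibitor. High-intensity Cdk1 values were 7.84 untreated, 7.94 and 7.98 with IL-2, 7.89 and 7.84 with the JAK1 inhibitor, and 7.84 and 7.40 with the JAK3 inhibitor. Untreated replicate 3 and replicate 1 of 4 µM JAK3 inhibitor were low in the low-intensity set, where the IL-2 pair lay between the untreated samples. Ccna2 encodes cyclin A2, a partner of Cdk1 in G2. Ccna2 was 7.17 and 7.09 in the untreated pair, 6.70 and 6.56 in the IL-2 pair, and 6.10 and 7.34 in replicates 1 and 2 of 4 µM JAK3 inhibitor. For Ccna2 the single samples were 7.01, 7.51, 7.54 and 7.64 at rising JAK1 inhibitor doses and 7.18 and 7.61 at 0.25 and 1 µM JAK3 inhibitor. High-intensity Ccna2 values were 7.90 untreated, 8.12 and 8.25 with IL-2, 8.29 and 8.13 with the JAK1 inhibitor, and 8.19 and 8.09 with the JAK3 inhibitor. The IL-2 pair was lower than every low-intensity sample but replicate 1 of 4 µM JAK3 inhibitor, and the high-intensity samples did not repeat that order.

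Ccnb2 encodes cyclin B2, a mitotic partner of Cdk1. Ccnb2 was 8.60 and 8.48 in the untreated pair, 8.06 and 7.98 in the IL-2 pair, and 6.91 and 9.05 in replicates 1 and 2 of 4 µM JAK3 inhibitor. For Ccnb2 the single samples were 8.20, 8.68, 8.60 and 8.81 at rising JAK1 inhibitor doses and 8.52 and 8.76 at 0.25 and 1 µM JAK3 inhibitor. High-intensity Ccnb2 values were 8.97 untreated, 8.86 and 8.97 with IL-2, 9.13 and 8.89 with the JAK1 inhibitor, and 8.88 and 8.65 with the JAK3 inhibitor. Apart from replicate 1 of 4 µM JAK3 inhibitor, the IL-2 pair was the lowest of the low-intensity set, and in the high-intensity set the IL-2 samples lay among the others. Cdc25c encodes a second phosphatase of Cdk1. Cdc25c was 4.28 and 4.26 in the untreated pair, 3.80 and 3.94 in the IL-2 pair, and 3.93 and 4.26 in replicates 1 and 2 of 4 µM JAK3 inhibitor. For Cdc25c the single samples were 4.37, 4.09, 4.54 and 4.37 at rising JAK1 inhibitor doses and 3.9982 and 4.28 at 0.25 and 1 µM JAK3 inhibitor. High-intensity Cdc25c values were 5.78 untreated, 5.86 and 5.84 with IL-2, 6.08 and 5.84 with the JAK1 inhibitor, and 5.84 and 5.84 with the JAK3 inhibitor. IL-2 samples were among the 3 lowest low-intensity values, with replicate 1 of 4 µM JAK3 inhibitor between them. Plk1 encodes a kinase of centrosome maturation and cytokinesis. Plk1 was 6.82 and 7.86 in the untreated pair, 7.51 and 7.39 in the IL-2 pair, and 6.14 and 8.47 in replicates 1 and 2 of 4 µM JAK3 inhibitor. For Plk1 the single samples were 7.72, 8.03, 8.29 and 8.07 at rising JAK1 inhibitor doses and 8.13 and 8.24 at 0.25 and 1 µM JAK3 inhibitor. High-intensity Plk1 values were 7.84 untreated, 7.89 and 8.17 with IL-2, 7.76 and 8.09 with the JAK1 inhibitor, and 8.23 and 7.9975 with the JAK3 inhibitor. The untreated pair differed by 1.04 and the 4 µM JAK3 inhibitor pair by 2.33, and the IL-2 pair lay inside both ranges.

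**Figure D5:**
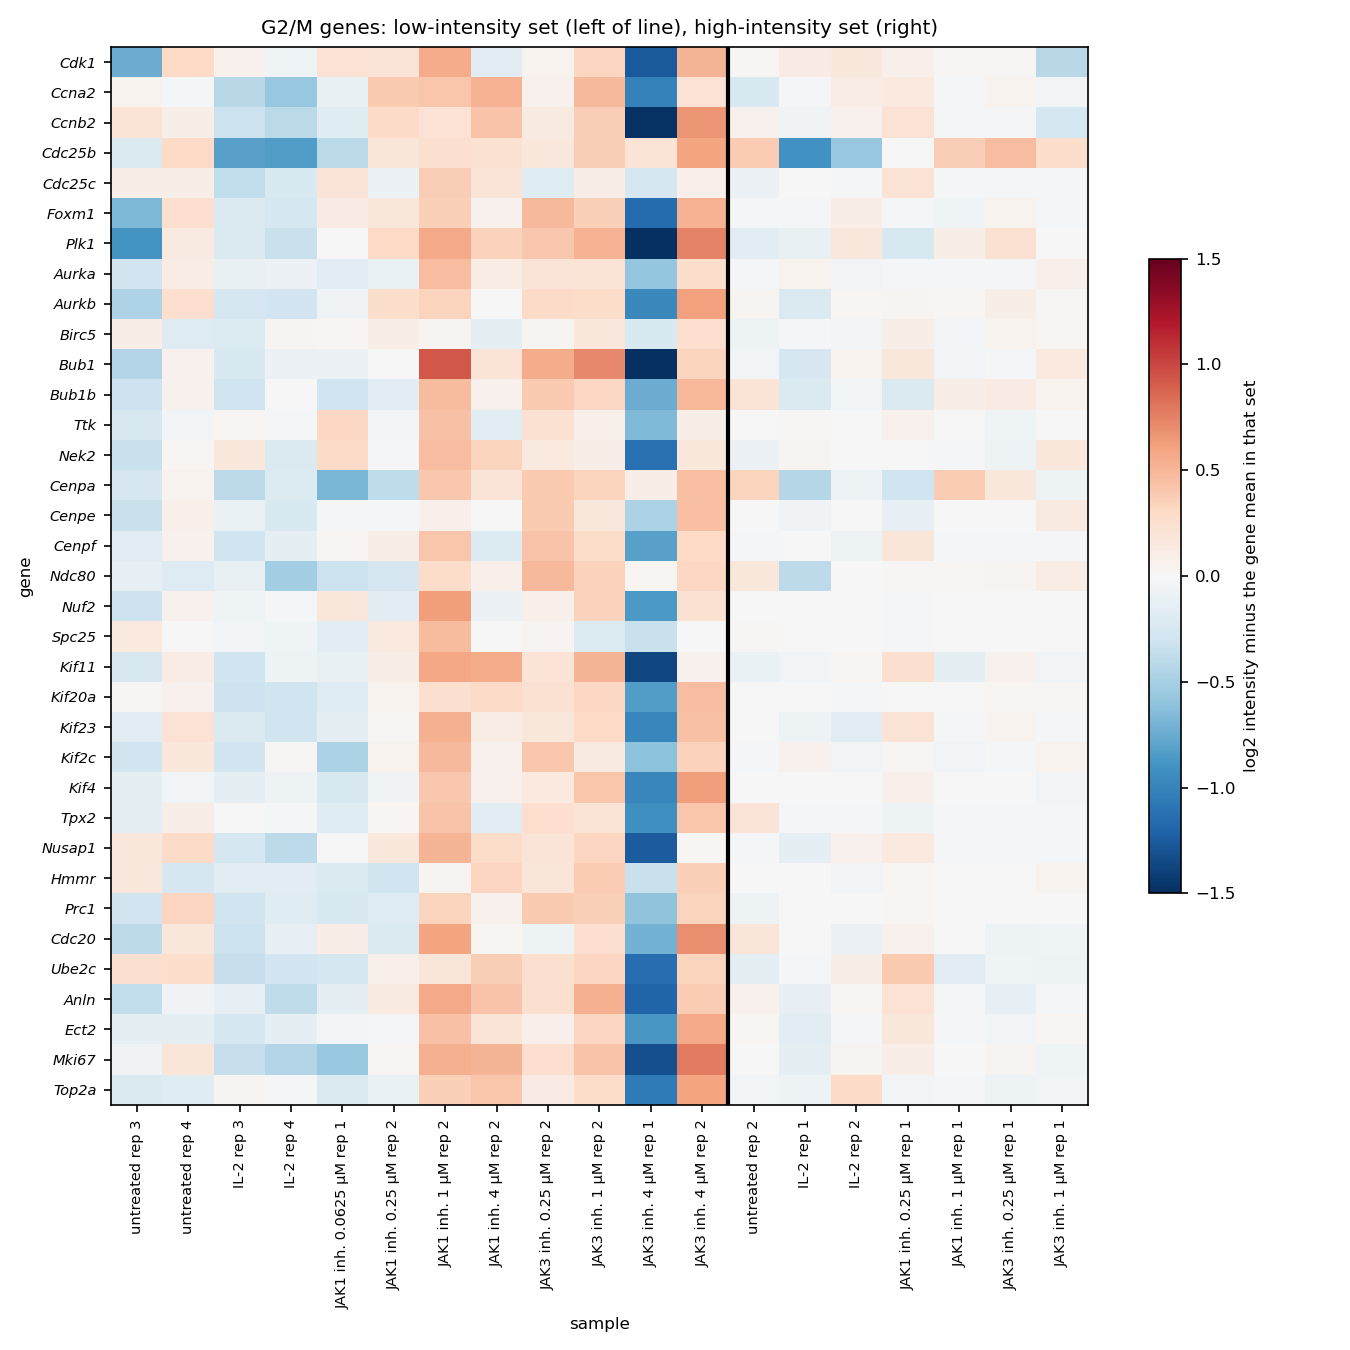
Heat map of the 35 members (rows, ordered by role) in all 19 samples (columns), as log2 intensity minus the gene's mean within its set, with red above and blue below. The low-intensity set is left of the line and the high-intensity set right of it. Replicate 1 of 4 µM JAK3 inhibitor is the lowest column for 31 members, and the high-intensity columns are pale apart from a few genes such as Cdc25b and Cenpa.

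Bub1 encodes a spindle checkpoint kinase. Bub1 was 5.98 and 6.49 in the untreated pair, 6.19 and 6.34 in the IL-2 pair, and 4.46 and 6.76 in replicates 1 and 2 of 4 µM JAK3 inhibitor. For Bub1 the single samples were 6.33, 6.43, 7.35 and 6.62 at rising JAK1 inhibitor doses and 6.98 and 7.14 at 0.25 and 1 µM JAK3 inhibitor. High-intensity Bub1 values were 6.65 untreated, 6.44 and 6.74 with IL-2, 6.86 and 6.65 with the JAK1 inhibitor, and 6.66 and 6.84 with the JAK3 inhibitor. The 4 µM JAK3 inhibitor pair spanned 2.30, and the sample at 1 µM JAK1 inhibitor was the highest of the low-intensity set. Bub1b encodes the checkpoint protein BUBR1. Bub1b was 6.11 and 6.49 in the untreated pair, 6.13 and 6.43 in the IL-2 pair, and 5.68 and 6.92 in replicates 1 and 2 of 4 µM JAK3 inhibitor. For Bub1b the single samples were 6.12, 6.25, 6.89 and 6.49 at rising JAK1 inhibitor doses and 6.82 and 6.73 at 0.25 and 1 µM JAK3 inhibitor. High-intensity Bub1b values were 7.56 untreated, 7.15 and 7.33 with IL-2, 7.15 and 7.46 with the JAK1 inhibitor, and 7.49 and 7.42 with the JAK3 inhibitor. IL-2 samples overlapped untreated cells in the low-intensity set, and in the high-intensity set the untreated sample was the highest. Birc5 encodes survivin, a subunit of the chromosomal passenger complex. Birc5 was 5.64 and 5.35 in the untreated pair, 5.34 and 5.58 in the IL-2 pair, and 5.32 and 5.80 in replicates 1 and 2 of 4 µM JAK3 inhibitor. For Birc5 the single samples were 5.58, 5.65, 5.59 and 5.41 at rising JAK1 inhibitor doses and 5.58 and 5.71 at 0.25 and 1 µM JAK3 inhibitor. High-intensity Birc5 values were 6.78 untreated, 6.85 and 6.82 with IL-2, 6.95 and 6.83 with the JAK1 inhibitor, and 6.91 and 6.89 with the JAK3 inhibitor. The groups overlapped in both sets, and replicate 1 of 4 µM JAK3 inhibitor was the lowest of its set. Ttk encodes the checkpoint kinase MPS1. Ttk was 4.61 and 4.82 in the untreated pair, 4.89 and 4.84 in the IL-2 pair, and 4.195 and 4.95 in replicates 1 and 2 of 4 µM JAK3 inhibitor. For Ttk the single samples were 5.17, 4.82, 5.30 and 4.68 at rising JAK1 inhibitor doses and 5.09 and 4.94 at 0.25 and 1 µM JAK3 inhibitor. High-intensity Ttk values were 5.83 untreated, 5.86 and 5.83 with IL-2, 5.91 and 5.83 with the JAK1 inhibitor, and 5.78 and 5.83 with the JAK3 inhibitor. Replicate 1 of 4 µM JAK3 inhibitor was the lowest, and 4 of 7 high-intensity values were equal at 5.83. Nek2 encodes a kinase that separates centrosomes. Nek2 was 5.36 and 5.72 in the untreated pair, 5.87 and 5.49 in the IL-2 pair, and 4.58 and 5.86 in replicates 1 and 2 of 4 µM JAK3 inhibitor. For Nek2 the single samples were 5.99, 5.68, 6.16 and 6.04 at rising JAK1 inhibitor doses and 5.84 and 5.79 at 0.25 and 1 µM JAK3 inhibitor. High-intensity Nek2 values were 7.09 untreated, 7.21 and 7.16 with IL-2, 7.16 and 7.14 with the JAK1 inhibitor, and 7.09 and 7.33 with the JAK3 inhibitor. The IL-2 pair lay inside the range of the inhibitor samples in the low-intensity set.

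Among kinetochore genes, Cenpe encodes a motor that carries chromosomes to the spindle equator. Cenpe was 5.41 and 5.82 in the untreated pair, 5.65 and 5.52 in the IL-2 pair, and 5.27 and 6.20 in replicates 1 and 2 of 4 µM JAK3 inhibitor. For Cenpe the single samples were 5.74, 5.73, 5.83 and 5.76 at rising JAK1 inhibitor doses and 6.14 and 5.92 at 0.25 and 1 µM JAK3 inhibitor. High-intensity Cenpe values were 6.53 untreated, 6.48 and 6.53 with IL-2, 6.40 and 6.53 with the JAK1 inhibitor, and 6.53 and 6.66 with the JAK3 inhibitor. In the low-intensity set IL-2 samples lay between the untreated samples, and the inhibitor samples of 0.25 µM and above were higher than the IL-2 pair except replicate 1 of 4 µM JAK3 inhibitor. Ndc80 encodes the microtubule-binding subunit of the complex that bears its name. Ndc80 was 4.87 and 4.79 in the untreated pair, 4.88 and 4.48 in the IL-2 pair, and 5.02 and 5.29 in replicates 1 and 2 of 4 µM JAK3 inhibitor. For Ndc80 the single samples were 4.67, 4.73, 5.26 and 5.06 at rising JAK1 inhibitor doses and 5.47 and 5.33 at 0.25 and 1 µM JAK3 inhibitor. High-intensity Ndc80 values were 7.45 untreated, 6.88 and 7.29 with IL-2, 7.30 and 7.31 with the JAK1 inhibitor, and 7.32 and 7.39 with the JAK3 inhibitor. IL-2 replicates 4 and 1 were the lowest of their sets, but IL-2 replicate 3 lay above both untreated samples. Nuf2 encodes the partner of Ndc80 in that complex. Nuf2 was 5.02 and 5.39 in the untreated pair, 5.27 and 5.31 in the IL-2 pair, and 4.48 and 5.56 in replicates 1 and 2 of 4 µM JAK3 inhibitor. For Nuf2 the single samples were 5.50, 5.18, 5.96 and 5.25 at rising JAK1 inhibitor doses and 5.41 and 5.67 at 0.25 and 1 µM JAK3 inhibitor. High-intensity Nuf2 values were 6.11 untreated, 6.12 and 6.12 with IL-2, 6.09 and 6.12 with the JAK1 inhibitor, and 6.12 and 6.12 with the JAK3 inhibitor. The high-intensity values spanned 6.09 to 6.12, and replicate 1 of 4 µM JAK3 inhibitor was lowest in the other set. Spc25 encodes another subunit of it. Spc25 was 5.63 and 5.49 in the untreated pair, 5.44 and 5.42 in the IL-2 pair, and 5.15 and 5.49 in replicates 1 and 2 of 4 µM JAK3 inhibitor. For Spc25 the single samples were 5.32, 5.63, 5.96 and 5.49 at rising JAK1 inhibitor doses and 5.52 and 5.28 at 0.25 and 1 µM JAK3 inhibitor. High-intensity Spc25 values were 6.68 untreated, 6.66 and 6.66 with IL-2, 6.64 and 6.66 with the JAK1 inhibitor, and 6.66 and 6.66 with the JAK3 inhibitor. Groups overlapped, and 5 of 7 high-intensity samples had the same value of 6.66.

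Among spindle genes, Kif11 encodes the motor that pushes spindle poles apart. Kif11 was 7.22 and 7.57 in the untreated pair, 7.16 and 7.38 in the IL-2 pair, and 6.10 and 7.53 in replicates 1 and 2 of 4 µM JAK3 inhibitor. For Kif11 the single samples were 7.34, 7.54, 8.05 and 8.02 at rising JAK1 inhibitor doses and 7.66 and 7.97 at 0.25 and 1 µM JAK3 inhibitor. High-intensity Kif11 values were 7.66 untreated, 7.72 and 7.78 with IL-2, 7.9961 and 7.61 with the JAK1 inhibitor, and 7.82 and 7.72 with the JAK3 inhibitor. In the low-intensity set the samples at 1 and 4 µM JAK1 inhibitor were the highest and the IL-2 pair overlapped the untreated pair. In the high-intensity set the sample at 1 µM JAK1 inhibitor was the lowest and that at 0.25 µM the highest. Kif2c encodes a motor that takes microtubules apart at centromeres. Kif2c was 5.19 and 5.64 in the untreated pair, 5.19 and 5.49 in the IL-2 pair, and 4.86 and 5.83 in replicates 1 and 2 of 4 µM JAK3 inhibitor. For Kif2c the single samples were 5.0003, 5.54, 5.97 and 5.54 at rising JAK1 inhibitor doses and 5.88 and 5.61 at 0.25 and 1 µM JAK3 inhibitor. High-intensity Kif2c values were 6.65 untreated, 6.75 and 6.64 with IL-2, 6.69 and 6.63 with the JAK1 inhibitor, and 6.65 and 6.74 with the JAK3 inhibitor. The sample at 0.0625 µM JAK1 inhibitor lay below the IL-2 pair and those at 1 µM of either inhibitor above it in the low-intensity set. Tpx2 encodes the activator of Aurora A on the spindle. Tpx2 was 5.81 and 6.04 in the untreated pair, 5.94 and 5.92 in the IL-2 pair, and 5.02 and 6.36 in replicates 1 and 2 of 4 µM JAK3 inhibitor. For Tpx2 the single samples were 5.76, 5.97, 6.37 and 5.77 at rising JAK1 inhibitor doses and 6.20 and 6.14 at 0.25 and 1 µM JAK3 inhibitor. High-intensity Tpx2 values were 6.83 untreated, 6.60 and 6.61 with IL-2, 6.56 and 6.61 with the JAK1 inhibitor, and 6.61 and 6.61 with the JAK3 inhibitor. Untreated replicate 2 was the highest high-intensity sample, and the IL-2 pair lay between the untreated samples in the other set. Nusap1 encodes a protein that bundles spindle microtubules. Nusap1 was 7.22 and 7.34 in the untreated pair, 6.80 and 6.67 in the IL-2 pair, and 5.81 and 7.08 in replicates 1 and 2 of 4 µM JAK3 inhibitor. For Nusap1 the single samples were 7.06, 7.22, 7.57 and 7.33 at rising JAK1 inhibitor doses and 7.25 and 7.38 at 0.25 and 1 µM JAK3 inhibitor. High-intensity Nusap1 values were 7.24 untreated, 7.12 and 7.33 with IL-2, 7.40 and 7.24 with the JAK1 inhibitor, and 7.24 and 7.24 with the JAK3 inhibitor. In the low-intensity set the IL-2 pair lay below both untreated samples, and only replicate 1 of 4 µM JAK3 inhibitor was lower. Hmmr encodes a spindle-associated hyaluronan receptor. Hmmr was 5.36 and 4.94 in the untreated pair, 5.02 and 5.02 in the IL-2 pair, and 4.86 and 5.54 in replicates 1 and 2 of 4 µM JAK3 inhibitor. For Hmmr the single samples were 4.97, 4.89, 5.23 and 5.51 at rising JAK1 inhibitor doses and 5.37 and 5.57 at 0.25 and 1 µM JAK3 inhibitor. High-intensity Hmmr values were 5.59 untreated, 5.59 and 5.56 with IL-2, 5.63 and 5.59 with the JAK1 inhibitor, and 5.59 and 5.66 with the JAK3 inhibitor. The high-intensity values spanned 5.56 to 5.66 and the low-intensity groups overlapped.

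For exit from mitosis, Ube2c encodes the ubiquitin-conjugating enzyme of the anaphase-promoting complex. Ube2c was 7.18 and 7.21 in the untreated pair, 6.59 and 6.65 in the IL-2 pair, and 5.80 and 7.28 in replicates 1 and 2 of 4 µM JAK3 inhibitor. For Ube2c the single samples were 6.68, 7.02, 7.12 and 7.31 at rising JAK1 inhibitor doses and 7.19 and 7.27 at 0.25 and 1 µM JAK3 inhibitor. High-intensity Ube2c values were 7.87 untreated, 7.99 and 8.10 with IL-2, 8.41 and 7.84 with the JAK1 inhibitor, and 7.95 and 7.94 with the JAK3 inhibitor. The IL-2 pair lay below untreated cells and the other inhibitor samples but above replicate 1 of 4 µM JAK3 inhibitor, and this order was absent from the high-intensity set. Of the chromosome proteins, Mki67 encodes the proliferation antigen Ki-67, which coats mitotic chromosomes. Mki67 was 7.91 and 8.14 in the untreated pair, 7.62 and 7.52 in the IL-2 pair, and 6.65 and 8.74 in replicates 1 and 2 of 4 µM JAK3 inhibitor. For Mki67 the single samples were 7.39, 7.99, 8.50 and 8.47 at rising JAK1 inhibitor doses and 8.22 and 8.39 at 0.25 and 1 µM JAK3 inhibitor. High-intensity Mki67 values were 8.68 untreated, 8.53 and 8.71 with IL-2, 8.77 and 8.68 with the JAK1 inhibitor, and 8.71 and 8.61 with the JAK3 inhibitor. Low-intensity inhibitor samples from 0.25 µM on were above the IL-2 pair except replicate 1 of 4 µM JAK3 inhibitor. Top2a encodes the topoisomerase that untangles chromosomes. Top2a was 6.55 and 6.59 in the untreated pair, 6.81 and 6.75 in the IL-2 pair, and 5.71 and 7.36 in replicates 1 and 2 of 4 µM JAK3 inhibitor. For Top2a the single samples were 6.55, 6.67, 7.12 and 7.18 at rising JAK1 inhibitor doses and 6.89 and 7.04 at 0.25 and 1 µM JAK3 inhibitor. High-intensity Top2a values were 7.51 untreated, 7.46 and 7.83 with IL-2, 7.51 and 7.53 with the JAK1 inhibitor, and 7.47 and 7.51 with the JAK3 inhibitor. The IL-2 pair lay above the untreated pair in the low-intensity set, and in the high-intensity set IL-2 samples were both the lowest and the highest.

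By role, the medians of the fitted changes lay closer together in some comparisons than in others. With IL-2 they ran from -0.14 for mitotic entry (7 genes) to 0.03 for the checkpoint and passenger genes (7). With 1 µM JAK1 inhibitor every role had only positive values, with medians of 0.33 for entry, 0.27 for checkpoint, 0.33 for kinetochore (6 genes), 0.28 for spindle (9), 0.39 for exit and cytokinesis (4) and 0.30 for chromosome proteins (2). With 1 µM JAK3 inhibitor the medians were 0.27, 0.18, 0.25, 0.31, 0.29 and 0.24 in the same order. Each 1 µM group has 1 sample per set. With 1 µM JAK1 inhibitor 35 members were positive in the low-intensity set (median 0.61) and 18 in the high-intensity set (median 0.00). With 1 µM JAK3 inhibitor 34 and 19 were positive (medians 0.55 and 0.01). With 4 µM JAK1 inhibitor, a single sample, the medians by role were wider apart, at 0.42, 0.15, 0.05, 0.26, 0.40 and 0.51. With 0.0625 µM, also 1 sample, they were 0.09, 0.08, 0.01, -0.11, 0.02 and -0.34. Differences between roles were not tested. Members not given sample by sample (Foxm1, Aurka, Aurkb, Cenpf, Kif20a, Kif23, Kif4, Prc1, Cdc20, Anln and Ect2) were all lowest in replicate 1 of 4 µM JAK3 inhibitor among the low-intensity samples. Their replicate difference in that group ranged from 0.85 for Aurka to 1.68 for the transcription factor gene Foxm1.

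Other mitotic genes gave at most 1 call per comparison with IL-2. Among the 91, Kpna2 fell by 0.54 ± 0.15 with 0.25 µM JAK3 inhibitor and Gtse1 fell by 0.52 ± 0.15 with 4 µM (limma adjusted p = 0.0415 and 0.0362), and 0 were called with the JAK1 inhibitor (2, 3, 12 and 3 at an unadjusted p under 0.05 from the lowest dose). Of the 19 genes of DREAM, MuvB and their partners, 2, 3 and 4 were called with 0.25, 1 and 4 µM JAK3 inhibitor (all genes 5%, 6.55% and 7.51%), 2 each with 1 and 4 µM JAK1 inhibitor (5.16% and 3.77%), and 3 with IL-2 (9.15%). Rb1 and Tfdp2 were called higher at each JAK3 inhibitor dose and at 1 and 4 µM JAK1 inhibitor. For Rb1 these changes were 0.62, 0.85 and 0.86 for the JAK3 inhibitor and 0.59 and 0.88 for the JAK1 inhibitor. For Tfdp2 they were 0.58, 0.81, 1.01, 0.94 and 1.02. E2f3 fell by 0.69 and 0.82 with 1 and 4 µM JAK3 inhibitor, and Mybl2, which encodes B-MYB, fell by 0.52 with 4 µM.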

How the data were processed

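The authors deposited one intensity per probe set for 19 Affymetrix Mouse Gene 1.0 ST arrays, made with Affymetrix Power Tools and RMA per the submitters' processing notes (no versions named there). The authors' deposited values are linear intensity, and log2 of them was taken. They lie on 2 scales, and the sources used here do not say which arrays were normalized together. Of 24922 probe sets, 21425 have 1 gene symbol in the platform annotation, 1399 several and 2098 no entry. The brightest probe set per gene gave 19752 genes. The number of arrays limits the precision.

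Groups came from the labels. limma 3.58.1 (R 4.3.3) fitted a mean per group and a term for the intensity set over all genes, with eBayes and an intensity trend, so groups of 1 sample take their spread from the rest. Residual degrees of freedom were 9. Benjamini-Hochberg adjustment ran over all 19752 genes, and a gene was called at an adjusted p under 0.05. SEs are the fit's. The group SDs are of values adjusted to the low-intensity scale, and in groups with samples in both sets they depend on the fitted set term. The fit was checked on simulated data for IL-2 against untreated cells alone, with independent noise. That check did not cover comparisons with groups of 1 or 2 samples. Python 3.11.15, numpy 2.4.6, pandas 2.3.3 and matplotlib 3.10.9 were used elsewhere.

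Values in every sample are given for members called in any comparison and for the 2 largest and 2 smallest replicate spreads. They are also given for the 3 highest and 3 lowest fitted changes in each comparison, whatever their sign. Alternatives covered the scale term, the normalization, the samples fitted, the replicate number, the variance model, probe sets, a filter on dim genes and each replicate left out. The members and lists were chosen with earlier results of these data known.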

Additional observations from a re-analysis of the deposited data

How the results depend on the processing

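No alternative that was run reversed a called value. With the title-form term 0 members were called in the F-test, with IL-2, and against IL-2 at 0.25 and 1 µM of either inhibitor and 4 µM JAK1 inhibitor. At 4 µM JAK3 inhibitor 1 was (Nek2, in place of Cdc25b), and the median at 4 µM JAK3 inhibitor was -0.57. The title form differs from the set only for replicate 1 of 4 µM JAK3 inhibitor, an array on the low scale. The title-form fit thus puts the gap between the scales into the spread and cannot judge the calls. With arrays centred on their medians and no set term the F-test called 1 member, 0.25 µM JAK1 inhibitor 0 and 1 µM JAK1 inhibitor 1, and the median at 4 µM JAK3 inhibitor was 0.31. The centred fit mixes set and dose, because the 4 µM samples lie in the low-intensity set alone and IL-2 samples in both sets. Shares of all genes called with the title-form term and with centred arrays are not given here. The counts from those fits are therefore not results about the members. The high-intensity set alone called 0 members with IL-2 and with 0.25 and 1 µM of either inhibitor, and 10 members had a spread above the gene median. The low-intensity set alone called 0 with IL-2, with 0.25 and 1 µM of either inhibitor and with 4 µM JAK1 inhibitor, where few residual degrees of freedom remain. Quantile normalization called 2 members with IL-2, with each JAK3 inhibitor dose and with 4 µM JAK1 inhibitor, where 7.06% to 13.6% of genes were called. A fit of only the compared groups called 3, 4 and 8 members at 0.25, 1 and 4 µM JAK1 inhibitor (8.96%, 10.6% and 8.83% of all genes), 3 each at 0.25 and 1 µM JAK3 inhibitor (11.4% and 13.1%), and 1 between the inhibitors at 0.25 µM (5.64%). The cause was not tested.

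The low-intensity set without replicate 1 of 4 µM JAK3 inhibitor was chosen after seeing the data. It called 0 members at 0.25 µM of either inhibitor, 1 at 1 µM JAK1 inhibitor (2.93% of genes), 2 at 1 µM and 5 at 4 µM JAK3 inhibitor (2.77% and 4.17%). Medians were 0.62 at 4 µM JAK3 inhibitor and -0.27 for JAK1 minus JAK3 inhibitor at 4 µM, and 21 members had a spread above the gene median.

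Leaving out 1 sample at a time gave 1 to 18 members in the F-test, 0 to 1 at 0.25 µM and 1 to 2 at 1 µM JAK1 inhibitor, 1 to 2 at 0.25 µM and 1 to 22 at 4 µM JAK3 inhibitor, and 0 to 9 between the inhibitors at 4 µM. The median ranged from -0.81 to 0.46 at 4 µM JAK3 inhibitor and from -0.27 to 0.96 between the inhibitors at 4 µM. Replicate 2 of 4 µM JAK3 inhibitor was the sample left out at the counts of 18, 22 and 9, where 8.97%, 8.65% and 0.137% of all genes were called. In the other leave-one-out fits the F-test called 1 to 3 members, and 4.07% to 9.19% of genes.

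For samples with the same replicate number in different groups, correlations of deviations from the fit ran from -0.54 to 0.70 over 38 pairs (median -0.01). In every inhibitor pair but that of 4 µM JAK3 inhibitor, replicate 1 is a high-intensity array and replicate 2 a low-intensity array. The set term thus removes much of any deviation they share. These correlations therefore cannot tell whether equal numbers mark a shared animal or culture. With the replicate block the median at 0.0625 µM JAK1 inhibitor was 0.66, and 1 member (Cenpa) was called between the inhibitors at 0.25 µM. The share of all genes called with that block is not given here, so the call is not a result about the group.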
